A study of Mus musculus with 4 samples.

Results

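The genes described are those for the proteins of the mitochondrial ribosome, 76 of the 19171 genes in an FPKM table of primary mouse calvarial cells. They were chosen by symbol alone, as Mrpl or Mrps followed by a number and at most 1 letter, with 47 Mrpl genes (large subunit) and 29 Mrps genes (small subunit). The cells were released by collagenase from skull bone of C57BL/6 mice at postnatal day 10. Every animal was homozygous for floxed alleles of the miR-17-92 cluster and for a null allele of the miR-106b-25 cluster (mir17fl/fl:106b-/-). An adenovirus brought in either Cre, which removes DNA between loxP sites, or YFP, and polyadenylated RNA was sequenced 3 days later (2 libraries with Cre, 2 with YFP). Both groups thus lacked the miR-106b-25 cluster, and the Cre group was set to lose the miR-17-92 cluster as well, in a culture where over 80% of cells were infected. Virus insert and deletion differed together and cannot be told apart.

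The mitochondrial ribosome translates the few proteins encoded by mitochondrial DNA, all of them subunits of the respiratory chain and ATP synthase. Its ribosomal RNAs come from mitochondrial DNA, while all its proteins are encoded in the nucleus, made in the cytosol and imported. Part of these proteins have bacterial counterparts, and part are found only in mitochondria. Mitochondrial respiration is known to rise as osteoblasts, the bone-forming cells, differentiate.

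The miRNAs of the deleted cluster are shown with the seed (bases 2 to 8) in capitals, because sites for these seeds were counted in the members' transcripts. The sequences are from RefSeq (GRCm38.p6) and lie on the plus strand of chromosome 14.
miR-17-5p: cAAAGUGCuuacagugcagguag
miR-18a-5p: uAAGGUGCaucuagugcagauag
miR-19a-3p: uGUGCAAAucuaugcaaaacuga
miR-20a-5p: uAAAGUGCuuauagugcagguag
miR-19b-3p: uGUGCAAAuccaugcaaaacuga
miR-92a-3p: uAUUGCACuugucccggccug
miR-17-5p and miR-20a-5p share 1 seed, miR-19a-3p and miR-19b-3p share another, and miR-18a-5p and miR-92a-3p each have their own. The host transcript of the cluster, Mir17hg, had 3.29 and 3.91 FPKM in the YFP and 7.35 and 8.49 in the Cre libraries, and it rose (log2 change 0.96, limma adjusted p = 3.62e-05). That value covers the whole transcript, the extent of the floxed segment is not given in the sources used here, and mature miRNAs were not measured in polyadenylated RNA. These data therefore hold no direct check of the deletion.

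The total of all FPKM values was 458756 and 462419 with YFP, and 461677 and 471021 with Cre, so Cre replicate 2 was the highest by this measure. Collagen genes marked the cells as mesenchymal, with Col1a1 between 1684 and 1778 FPKM in every library. Osteoblast markers were mixed. Of 7 tested, 1 rose and 1 fell. Over all tested genes 16.6% rose and 16.3% fell, shares that stand beside each list of markers here. Spp1, a bone matrix gene, had 3126 and 3242 FPKM with YFP and 3855 and 3919 with Cre and rose (limma adjusted p = 0.00148). Col1a2 had 1329 and 1242 FPKM with YFP and 1081 and 1024 with Cre and fell (limma adjusted p = 0.00218). Runx2 was at 10.28 to 12.11 FPKM. Sp7 was at 1.81 to 2.43 FPKM, Ibsp at 0.39 to 0.63, and Bglap at 0 in both YFP libraries and at 1.27 and 0.91 with Cre. All 8 proliferation markers tested fell with Cre (summed level 369 to 375 FPKM with YFP, 286 to 288 with Cre). Of 7 macrophage markers, 5 were tested and 4 rose (summed level 94.0 to 96.2 with YFP, 125 to 132 with Cre). Of 6 fibroblast markers 5 fell (1475 to 1512 FPKM with YFP, 1238 to 1264 with Cre). Of 5 muscle markers, Acta1 and Des were tested and rose, while Myh3, Myog and Ckm were below the filter. The summed level of the 5 was 38.2 to 45.8 FPKM with YFP and 69.1 to 72.6 with Cre. Most of it was Acta1 (43.30 and 36.57 with YFP, 65.17 and 68.57 with Cre). Of 5 endothelial markers, Cdh5 and Kdr were tested and 0 were called, with both Cre libraries above both YFP libraries in each. The summed level of these 5 was 4.17 to 4.3 FPKM with YFP and 4.75 to 5.05 with Cre. Of 5 erythroid markers, 2 were found by symbol (Hba-a1 and Alas2), and these summed to at most 0.36 FPKM in every library. The part of these cells in the values below was not tested, and fewer cells of a type cannot be told apart from less RNA per cell in a bulk culture.

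All 76 members were expressed above the filter (1 FPKM or more in 2 or more libraries). Mean levels ran from 5.11 FPKM for Mrpl19 to 109 FPKM for Mrpl42, a 21.3-fold range on the FPKM scale, which is per transcript length. Most lay close together: 41 members were between 20 and 50 FPKM, 19 between 10 and 20, 7 between 50 and 100, 3 above 100 and 6 below 10. The median was 28.8 FPKM for Mrpl and 28.4 for Mrps genes, so the transcripts of the subunits had nearly the same typical level. Summed over members, the level was 2487 and 2505 FPKM with YFP and 2487 and 2568 with Cre. That is 0.542% of all FPKM in each YFP library, and 0.539% and 0.545% in the Cre libraries.

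**Figure D1:**
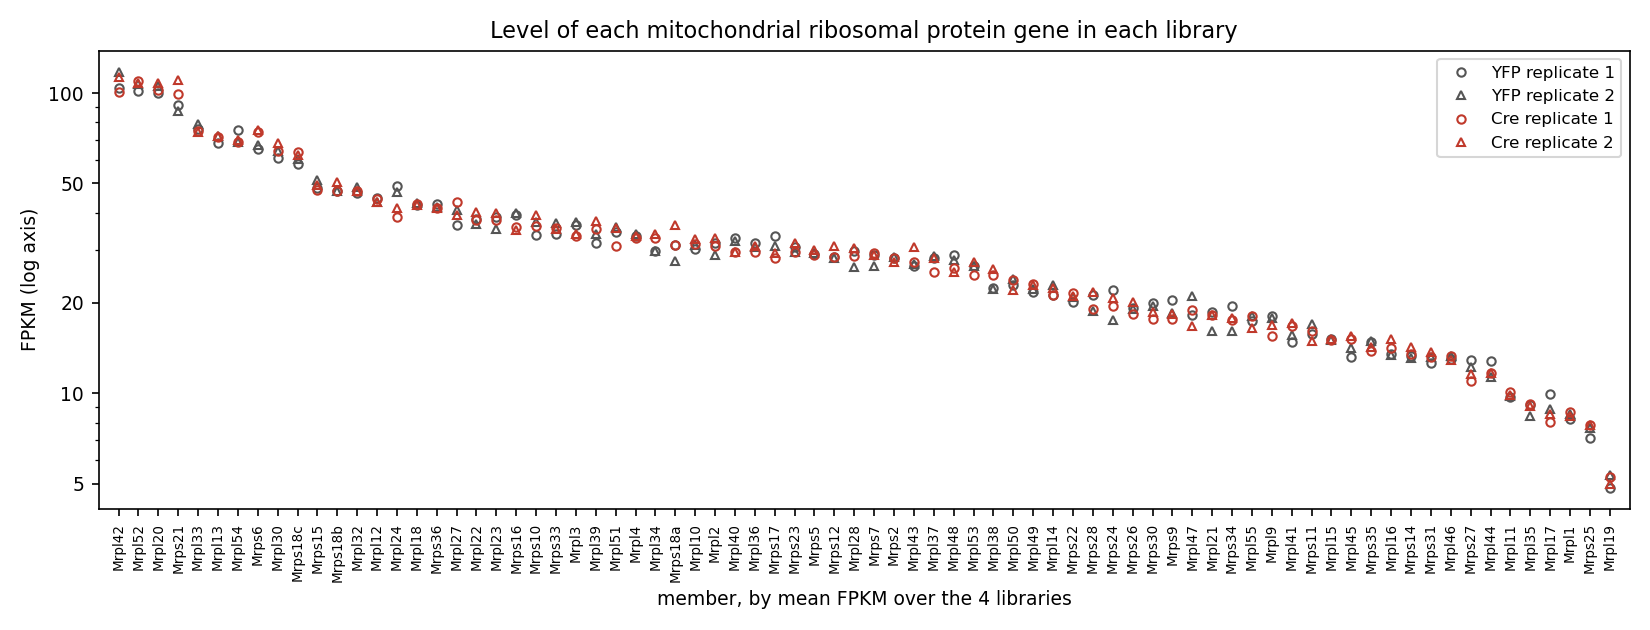
FPKM (log axis) of each of the 76 members in the 4 libraries, ordered by mean level; grey marks are YFP, red marks Cre, circles replicate 1 and triangles replicate 2. The levels fall from about 109 FPKM for Mrpl42 to 5.11 for Mrpl19, and the libraries of a member lie close together.

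At the top, Mrpl42, a mitochondria-specific protein of the large subunit, had 104.18 and 117.88 FPKM with YFP and 100.90 and 112.75 with Cre. Mrpl52, also mitochondria-specific, had 101.43 and 107.12 with YFP and 109.89 and 108.10 with Cre. Mrpl20, a counterpart of bacterial L20, had 100.03 and 105.33 with YFP and 102.39 and 107.78 with Cre. These 3 ranges overlap one another, so their order is not set by these libraries, and none of the 3 passed the test (limma adjusted p = 0.609, 0.325 and 0.642). Among Mrps genes the highest were Mrps21, Mrps6 and Mrps18c. Mrps18c, a counterpart of bacterial S18, had 57.95 and 60.52 FPKM with YFP and 63.44 and 62.07 with Cre (adjusted p = 0.197). At the bottom, Mrpl19 had 4.85 and 5.34 FPKM with YFP and 5.26 and 4.99 with Cre, below the next member in every library.

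Of the 76 members, 8 passed an adjusted p of 0.05 in limma, 4 higher and 4 lower with Cre. That is 10.5%, beside 32.9% of all 12046 tested genes (3961) and 33.7% of the 7718 tested genes in the members' range of mean FPKM. It was 4 of 47 Mrpl genes (2 higher, 2 lower) and 4 of 29 Mrps genes (2 higher, 2 lower). The median log2 change was -0.001 for Mrpl and 0.023 for Mrps genes, beside -0.013 over all tested genes. The median size of the log2 change, sign aside, was 0.063 for the members, 0.109 for genes of the same range and 0.119 for all tested genes. Between the replicates of a group, the members' median log2 difference in size was 0.060 (YFP) and 0.059 (Cre). The first of these is a difference of means of 2 libraries and the others are differences of single libraries, so they are not on equal terms. With sign kept, replicate 2 minus replicate 1 had a median of 0.010 (YFP) and 0.040 (Cre) over members. For Mrps genes it was -0.011 and 0.052, and over all tested genes -0.002 in both groups. At an unadjusted p of 0.05, 17 members passed (22.4%, beside 43.3% of all tested genes).

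**Figure D2:**
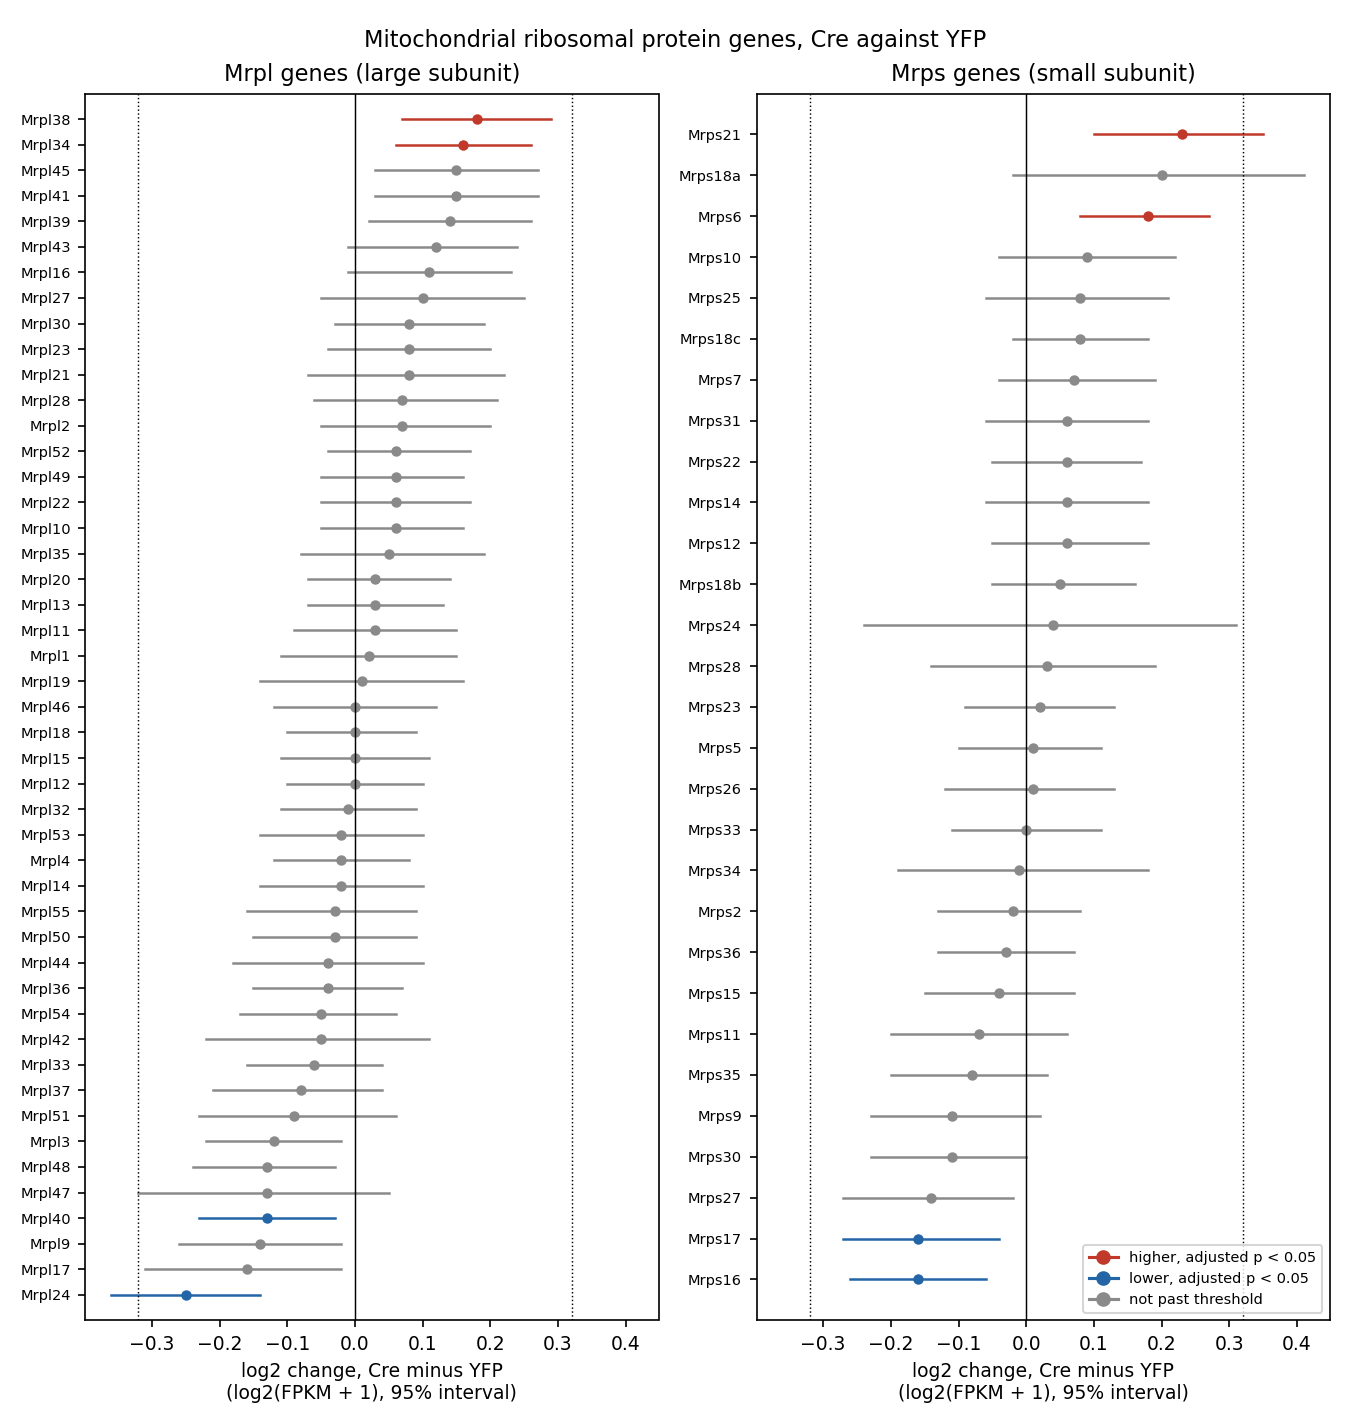
Log2 change (Cre minus YFP, on the log2(FPKM + 1) scale) with its 95% limma interval for the 47 Mrpl and 29 Mrps genes. Genes are in order of the change. Colours mark members past the threshold, and dotted lines a 1.25-fold change of FPKM + 1 (0.32). The intervals of Mrpl24, Mrps21 and Mrps18a cross a dotted line, and those of the other 73 members do not.

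Most members could be bounded as far as the spread among these 4 libraries goes, which may be technical. Whether an interval lies within a bound depends on the size of the change as well as on precision. The median SE was 0.053 for members and 0.056 for genes of the same range. The bound was a log2 change of 0.32, which is 1.25-fold on FPKM + 1 and somewhat wider on FPKM itself in low members. For 73 of 76, the 95% interval of the log2 change lay within it in either direction, beside 72.9% of genes of the same range. The exceptions were Mrpl24, Mrps21 and Mrps18a. Over all members the log2 changes ran from -0.25 to 0.23, while over genes of the same range they ran from -1.85 to 1.81. The groups did not overlap in 34 members (20 higher, 14 lower with Cre), 44.7% beside 66.9% of all tested genes.

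**Figure D3:**
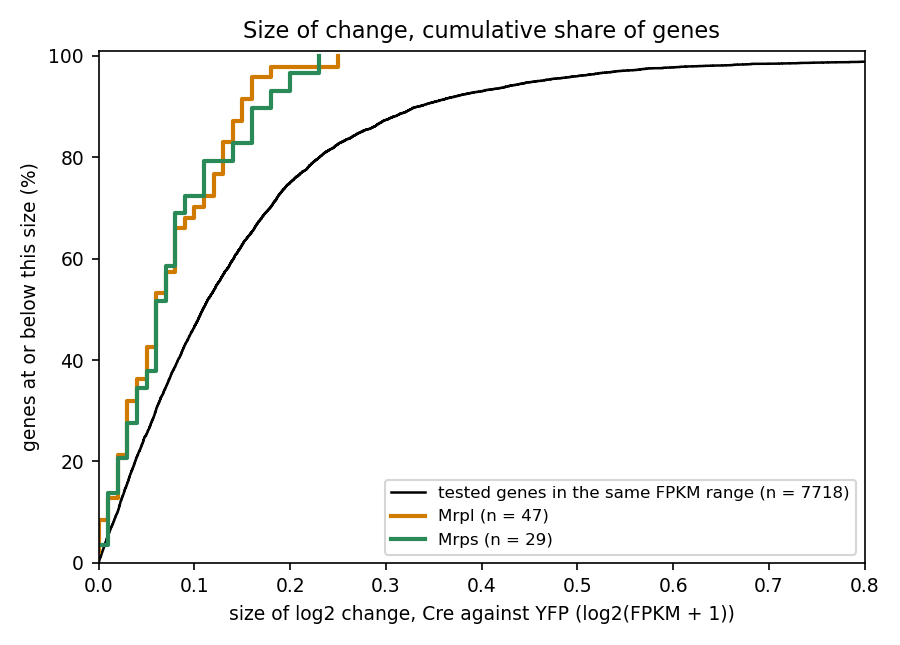
Cumulative share of genes (vertical axis, %) by the size of the log2 change between Cre and YFP (horizontal axis), for 47 Mrpl genes, 29 Mrps genes and 7718 tested genes of the same FPKM range. Both curves of the members lie left of the black curve over nearly the whole range and end at 0.25 and 0.23.

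Among large-subunit genes, Mrpl24 fell. Mrpl24 (Entrez 67707), whose bacterial counterpart L24 starts assembly of the large subunit, had 49.01 and 46.68 FPKM with YFP and 38.78 and 41.34 with Cre. Both Cre libraries were below both YFP libraries, with means of 47.8 ± 1.6 and 40.1 ± 1.8 (SD, n = 2). The log2 change was -0.25 (SE 0.050, limma adjusted p = 0.00331), which was the largest in size among the 76 members. Leaving out Cre replicate 1 ended the call (adjusted p = 0.0635). Its exons overlap those of Rrnad1 on the opposite strand by 463 bases in GENCODE M21. Rrnad1 had 4.59 and 4.71 FPKM with YFP and 4.72 and 5.00 with Cre (log2 change 0.05, adjusted p = 0.586), and whether strand was used in counting is not given in the sources used here.

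Mrpl40 (Entrez 18100), a mitochondria-specific protein of the central protuberance, had 32.81 and 32.22 FPKM with YFP and 29.61 and 29.62 with Cre. The groups did not overlap, and it fell (log2 change -0.13, SE 0.045, limma adjusted p = 0.0471). Mrpl40 did not pass under median-of-ratios scaling (adjusted p = 0.0633), without trend and robust moderation (0.0943) or with no filter (0.0784). Mrpl38 (Entrez 60441), mitochondria-specific as well, had 22.36 and 22.26 FPKM with YFP and 24.78 and 26.04 with Cre. Both Cre values were above both YFP values (log2 change 0.18, SE 0.049, adjusted p = 0.0167). Mrpl34 (Entrez 94065), a counterpart of bacterial L34, had 29.84 and 29.70 FPKM with YFP and 33.02 and 33.92 with Cre. It rose, again with no overlap (log2 change 0.16, SE 0.046, adjusted p = 0.0186).

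Among small-subunit genes, Mrps21 and Mrps6 rose. Mrps21 (Entrez 66292), a counterpart of bacterial S21, had 91.14 and 87.11 FPKM with YFP and 99.13 and 110.29 with Cre. The means were 89.1 ± 2.8 and 104.7 ± 7.9 (SD, n = 2), with no overlap but a wider spread with Cre. The log2 change was 0.23 (SE 0.056, limma adjusted p = 0.0105), and it was 0.15 without Cre replicate 2 (adjusted p = 0.152). Mrps6 (Entrez 121022), a counterpart of bacterial S6, had 65.22 and 67.02 FPKM with YFP and 74.42 and 75.33 with Cre, and both replicates of each group lay close together. Its log2 change was 0.18 (SE 0.044, adjusted p = 0.0107). Mrps6 shares 159 exon bases on the same strand with Slc5a3, a myo-inositol transporter gene, and reads there could be counted for either. Slc5a3 had 3.99 and 4.25 FPKM with YFP and 5.72 and 5.16 with Cre, and it rose too (log2 change 0.33, adjusted p = 0.005).

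Mrps16 and Mrps17 fell, both of them counterparts of bacterial small-subunit proteins that bind ribosomal RNA. Mrps16 (Entrez 66242) had 39.30 and 39.83 FPKM with YFP and 35.71 and 34.95 with Cre (log2 change -0.16, SE 0.045, limma adjusted p = 0.0197). Mrps17 (Entrez 66258) had 33.47 and 31.00 FPKM with YFP and 28.33 and 29.24 with Cre (log2 change -0.16, SE 0.051, adjusted p = 0.0377). In each of the genes the Cre values were below the YFP values.

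**Figure D4:**
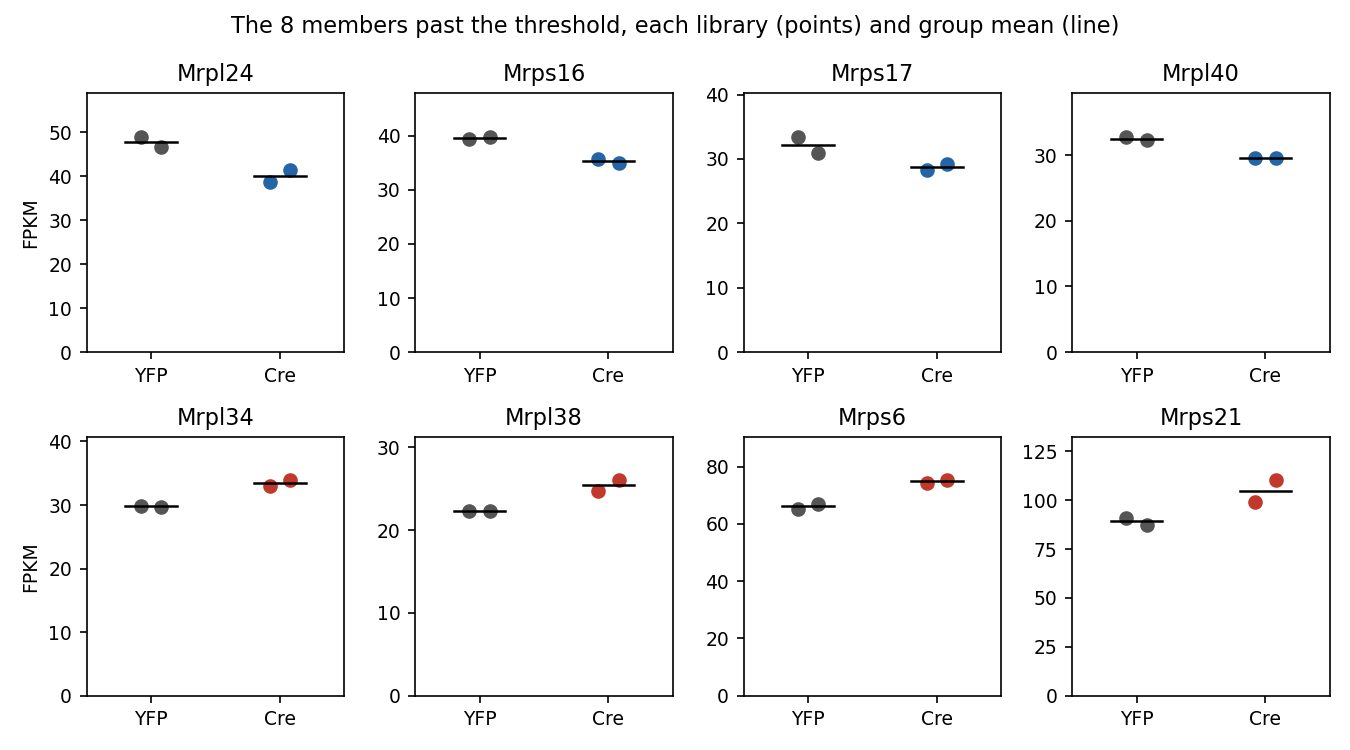
FPKM in each library (points) and group mean (line) for the 8 members past the threshold, with each vertical axis starting at 0. In all 8 the Cre and YFP points do not overlap, and ratios of the Cre to the YFP mean run from 0.84 in Mrpl24 to 1.17 in Mrps21.

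Each of these 8 calls was lost when one or the other Cre library was left out, a fit in which the lone Cre library is assumed to vary like the YFP pair. The log2 changes themselves moved less: those of Mrpl40 were -0.13 and -0.13, those of Mrps6 0.19 and 0.17, and those of Mrps16 -0.17 and -0.14, without Cre replicate 1 and 2 in turn. Without Cre replicate 1, 2 members were called, of which 1 (Mrps21) was among the 8, and without Cre replicate 2 Mrpl24 alone was called. Mrps17 and Mrpl40 also did not pass without YFP replicate 1 (adjusted p = 0.179 and 0.121), nor Mrps16 and Mrpl40 without YFP replicate 2 (0.0506 and 0.0618). Over 11 alternatives, Mrps21 and Mrpl24 were called in 10, Mrps6 and Mrpl38 in 8, Mrps16 and Mrpl34 in 7, Mrps17 in 5 and Mrpl40 in 3. The split also moved with composition: with the trend on transcript GC and length removed, 12 members were called, 1 higher and 11 lower, and 5 of the 8 were among them. Mrps6, Mrpl38 and Mrpl34 lost their calls there (adjusted p = 0.122, 0.273 and 0.556). The members' median log2 change was then -0.048, beside -0.019 over all genes in that fit.

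The other 68 members had log2 changes from -0.16 to 0.20. In 42 of them the groups overlapped, in 16 both Cre libraries were higher and in 10 both were lower. Of these 68, 9 had an unadjusted p under 0.05, 3 higher (Mrpl39, Mrpl41, Mrpl45) and 6 lower (Mrpl3, Mrpl9, Mrpl17, Mrpl48, Mrps27, Mrps30). Mrpl12, the stalk protein that recruits translation factors, had 44.78 and 43.27 FPKM with YFP and 44.34 and 43.47 with Cre, with a 95% interval of the log2 change from -0.10 to 0.10. Mrps12, a protein of the decoding centre, had 28.56 and 28.32 with YFP and 28.44 and 31.04 with Cre. Mrpl12 and Mrps12 did not pass (adjusted p = 0.962 and 0.408).

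Some Mrps symbols stand for proteins outside the small subunit. Mrps18a and Mrps30 sit in the large subunit in structures of the mammalian mitochondrial ribosome, and Mrps36 is known as a subunit of 2-oxoglutarate dehydrogenase. Mrps18a had 31.16 and 27.56 FPKM with YFP and 31.12 and 36.50 with Cre, with overlapping groups and the widest gap between Cre replicates of these 3 (log2 change 0.20, SE 0.089, limma adjusted p = 0.144). It passed without Cre replicate 1 (adjusted p = 0.0378). Mrps30 had 19.97 and 19.53 with YFP and 17.70 and 18.63 with Cre, with no overlap (log2 change -0.11, adjusted p = 0.110). Mrps36 had 42.79 and 41.82 with YFP and 41.53 and 41.32 with Cre (log2 change -0.03, adjusted p = 0.653). Moving Mrps18a and Mrps30 to the large subunit and leaving out Mrps36 gave 4 called of 49 and 4 of 26.

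By origin, 2 of 30 large-subunit proteins with bacterial counterparts and 2 of 19 mitochondria-specific ones (Mrps18a and Mrps30 included) were called. In the small subunit it was 4 of 16 with bacterial counterparts and 0 of 10 mitochondria-specific ones, of which 1 had an unadjusted p under 0.05. Each of these shares, up to 25% for the 4 of 16, was below the 32.9% called over all tested genes, and the difference between the classes was not tested. The median log2 changes of these classes were 0.015, -0.024, 0.031 and 0.014. Mrps18a and Mrps18b were listed as mitochondria-specific, although they share a symbol stem with Mrps18c, which was listed with the bacterial counterparts. The split by origin is thus not firm for them. Of all tested genes, 16.6% were higher and 16.3% lower. Cytosolic ribosomal proteins, taken by symbol, gave 1 higher (1.28%) and 7 lower (8.97%) of 78 (together 10.3%, median -0.029). Nuclear-encoded subunits of the respiratory chain and ATP synthase gave 12 higher (16.2%) and 2 lower (2.7%) of 74 (together 18.9%, median 0.051). Whether these groups differ from the mitochondrial ribosome was not tested.

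Promoters of 67 members were found in the RefSeq table (GRCm38.p6, 250 bases before to 50 after the start). On either strand, the NRF1 core GCATGCGC occurred in 8 of them (11.9%, beside 6.07% of 9538 tested genes with a promoter and 3.05% of all 27025). The ETS motif of GABP, CCGGAAGT, occurred in 12 (17.9%, beside 9.5% and 4.31%), and the YY1 motif AAGATGGC in 12 (17.9%, beside 5.42% and 3.19%). The E-box CACGTG was found in 5 (7.46%, beside 12.1% and 8.09%) and the E2F motif TTCCCGCC in 2 (2.99%, beside 4.79% and 2.52%). NRF1, GABP and YY1 are known activators of nuclear genes for mitochondrial proteins. None of the 5 motifs contains another. At least 1 of them occurred in 32 of 67 member promoters (47.8%, beside 32.3% of tested genes). Of the 8 called members, 7 had a promoter in the table, and 0 of these 7 held any of the motifs. Uncalled members such as Mrpl1 and Mrpl12 held none either, and a link between motif and call was not tested. Only exact matches were counted, so near matches to a motif were missed.

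The promoters of Mrpl33, Mrps21 and Mrpl24 are printed 5′ to 3′ on the gene's strand, to set a motif-bearing promoter of an uncalled member beside those of the largest rise and the largest fall. Capitals mark motif matches: in Mrpl33 the NRF1 core on the reverse strand (GCGCATGC) and the ETS motif 1 base after it, and in the other 2 there is none. Mrpl33 lies at chr5:31613701-31614000 (plus strand), Mrps21 at chr3:95871465-95871764 (minus strand) and Mrpl24 at chr3:87919294-87919593 (plus strand).
Mrpl33: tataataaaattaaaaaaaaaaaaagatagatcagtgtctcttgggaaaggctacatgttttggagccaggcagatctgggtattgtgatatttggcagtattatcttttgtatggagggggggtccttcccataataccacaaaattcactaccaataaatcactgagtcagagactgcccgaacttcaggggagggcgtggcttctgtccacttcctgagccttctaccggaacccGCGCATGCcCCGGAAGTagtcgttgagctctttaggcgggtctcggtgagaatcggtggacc
Mrps21: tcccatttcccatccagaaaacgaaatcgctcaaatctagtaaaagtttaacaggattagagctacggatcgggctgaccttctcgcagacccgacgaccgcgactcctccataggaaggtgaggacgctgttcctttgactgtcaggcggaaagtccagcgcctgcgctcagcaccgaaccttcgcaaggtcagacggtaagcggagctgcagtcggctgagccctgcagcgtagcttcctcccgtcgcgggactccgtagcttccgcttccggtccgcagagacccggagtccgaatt
Mrpl24: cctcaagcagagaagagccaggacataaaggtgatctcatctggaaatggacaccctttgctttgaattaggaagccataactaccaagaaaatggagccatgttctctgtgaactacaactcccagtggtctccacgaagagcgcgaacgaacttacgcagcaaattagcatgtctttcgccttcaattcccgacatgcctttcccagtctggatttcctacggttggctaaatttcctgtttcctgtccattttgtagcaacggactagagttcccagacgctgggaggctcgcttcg
Mrpl33, a counterpart of bacterial L33, had 76.12 and 79.07 FPKM with YFP and 74.58 and 74.02 with Cre (log2 change -0.06, limma adjusted p = 0.324).

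Transcripts of the members were short. The median transcript length was 1224 bases, beside 2992 over tested genes, and the median 3′ UTR was 326 bases, beside 1086 (GENCODE M21). A match to a seed shown above, anywhere in the 3′ UTR on the transcript's strand, was found in 15 of 76 members (19.7%), beside 32.4% of 11513 tested genes with a UTR. By family it was 7 members for miR-17 and miR-20a (GCACTTT), 5 for miR-18a (GCACCTT), 4 for miR-19 (TTTGCAC) and 2 for miR-92a (GTGCAAT), beside 14.2%, 8.72%, 12.8% and 7.19% of tested genes (9.21%, 6.58%, 5.26% and 2.63% of members). Of the 15 with a site, 0 rose and 2 fell, Mrps16 with a miR-92a match and Mrps17 with a miR-18a match. Among all tested genes with a site, 603 rose and 595 fell of 3727, so the 2 falls of 15 are near that share. Their log2 changes ran from -0.16 to 0.12, with a median of -0.08, beside 0.03 in members without a site. Over all tested genes the medians were -0.02 with and -0.01 without a site.

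Exons of 32 members overlap another gene in GENCODE M21, 20 of them a protein-coding gene on the opposite strand. Mrpl46 and Mrps11, one of each subunit, overlap each other by 173 bases on opposite strands. Mrpl46 had 13.00 and 13.28 FPKM with YFP and 13.35 and 12.91 with Cre, and Mrps11 had 15.73 and 17.09 with YFP and 16.19 and 14.96 with Cre. In both genes the groups overlapped (limma adjusted p = 0.992 and 0.405). The 76 genes lie on 17 chromosomes, so they do not form 1 cluster.

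Some proteins of the mitochondrial ribosome carry other symbols. Of 6 on a list (Dap3, Ptcd3, Chchd1, Aurkaip1, Gadd45gip1, Ict1), 0 rose and 0 fell, with 0 at an unadjusted p under 0.05 and a median log2 change of 0.01. The smallest p was that of Ptcd3, a protein with RNA-binding PPR repeats, at 28.22 and 27.01 FPKM with YFP and 30.55 and 28.39 with Cre (log2 change 0.09, limma adjusted p = 0.214). Chchd1 had 55.07 and 59.02 FPKM with YFP and 53.35 and 55.79 with Cre (adjusted p = 0.377), and Aurkaip1 43.53 and 45.01 with YFP and 43.86 and 48.64 with Cre (adjusted p = 0.441). Mrp63, an older symbol for Mrpl57, is outside the symbol rule and had 12.53 and 13.58 FPKM with YFP and 13.21 and 13.48 with Cre (adjusted p = 0.722).

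Lists of other genes around mitochondrial translation gave more falls than rises, with the falls near the share over all tested genes. Together with those 6 proteins, the lists of translation factors, assembly factors, expression of mitochondrial DNA and regulators held 61 tested genes, of which 1 rose and 10 fell. The falls are 16.4%, beside 16.3% lower among all tested genes, and the rise is 1.64%, beside 16.6% higher. Of 15 translation factors, 1 fell and 0 rose. It was Guf1, the counterpart of the bacterial elongation factor LepA, with 6.80 and 6.72 FPKM with YFP and 5.17 and 5.21 with Cre (log2 change -0.33, SE 0.061, limma adjusted p = 0.00218). Mtrf1, a release factor, had 3.45 and 3.42 with YFP and 2.78 and 2.99 with Cre (adjusted p = 0.060), and the membrane insertase gene Oxa1l 21.98 and 23.04 with YFP and 20.53 and 21.30 with Cre (adjusted p = 0.150).

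Of 24 assembly factors, 5 fell and 0 rose, with a median log2 change of -0.08. The 5 falls are 20.8%, close to the 16.3% lower among all tested genes. Mtg1, a GTPase that acts on the large subunit, had 6.32 and 6.70 FPKM with YFP and 4.37 and 5.18 with Cre (log2 change -0.38, SE 0.077, limma adjusted p = 0.00361). Tfb1m, which methylates the small-subunit ribosomal RNA, had 5.48 and 5.65 with YFP and 3.94 and 4.48 with Cre (log2 change -0.34, adjusted p = 0.00481). Ngrn, needed for the large-subunit ribosomal RNA, had 8.63 and 8.32 with YFP and 7.12 and 6.86 with Cre (log2 change -0.25, adjusted p = 0.00903). In these 3 genes both Cre libraries were below both YFP libraries. Tfb1m did not pass when Cre replicate 1 was left out (adjusted p = 0.0609), nor Ngrn when Cre replicate 2 was (adjusted p = 0.0889). The other 2 were Mterfd1 (an older symbol for Mterf3), with a log2 change of -0.17, and Mettl15, with -0.20. Neither of these passed without Cre replicate 1, Cre replicate 2 or YFP replicate 1, nor did Mettl15 without YFP replicate 2 (adjusted p from 0.0612 to 0.221). With the GC and length trend removed neither passed (adjusted p = 0.0556 and 0.106), and Mettl15 also did not under median-of-ratios scaling (0.0541) or with no filter (0.0755), so that it passed in 2 of 10 alternatives.

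Of 9 genes for expression and copying of mitochondrial DNA, 3 fell and 0 rose (33.3%, beside 16.3% lower among all tested genes), in a list too short to read a share from. Tfam, the main packaging and transcription factor of mitochondrial DNA, had 7.75 and 7.99 FPKM with YFP and 6.26 and 6.26 with Cre (log2 change -0.29, SE 0.059, limma adjusted p = 0.00381). Its Cre values were equal to 2 decimals and below both YFP values. Mterf, a factor that binds downstream of the ribosomal RNA genes, had 3.40 and 2.98 with YFP and 2.28 and 2.31 with Cre (log2 change -0.34, adjusted p = 0.00624). Mterf did not pass when Cre replicate 1 or Cre replicate 2 was left out (adjusted p = 0.0531 and 0.0554). Polg, the mitochondrial DNA polymerase gene, had 8.66 and 7.80 with YFP and 6.94 and 7.15 with Cre (log2 change -0.20, adjusted p = 0.0392).

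Of 7 tested regulators, Esrra rose and Nrf1 fell. Esrra, a nuclear receptor that drives respiratory genes, had 6.98 and 6.68 FPKM with YFP and 8.85 and 8.97 with Cre (log2 change 0.34, SE 0.059, limma adjusted p = 0.00134). Nrf1, the factor whose motif was searched above, had 8.32 and 8.03 with YFP and 7.14 and 7.05 with Cre (log2 change -0.18, adjusted p = 0.0362). Polg and Nrf1 did not pass without Cre replicate 1 (adjusted p = 0.185 and 0.122), without Cre replicate 2 (0.133 and 0.168) or without YFP replicate 1 (0.216 and 0.128), and Nrf1 also not without YFP replicate 2 (0.0524). With no filter neither passed (0.089 and 0.065), nor did Polg without trend and robust moderation (0.0607). Gabpa, the DNA-binding part of GABP, had 22.03 and 22.22 with YFP and 20.49 and 19.66 with Cre (adjusted p = 0.0578). Ppargc1a and Ppargc1b were below the filter.

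**Figure D5:**
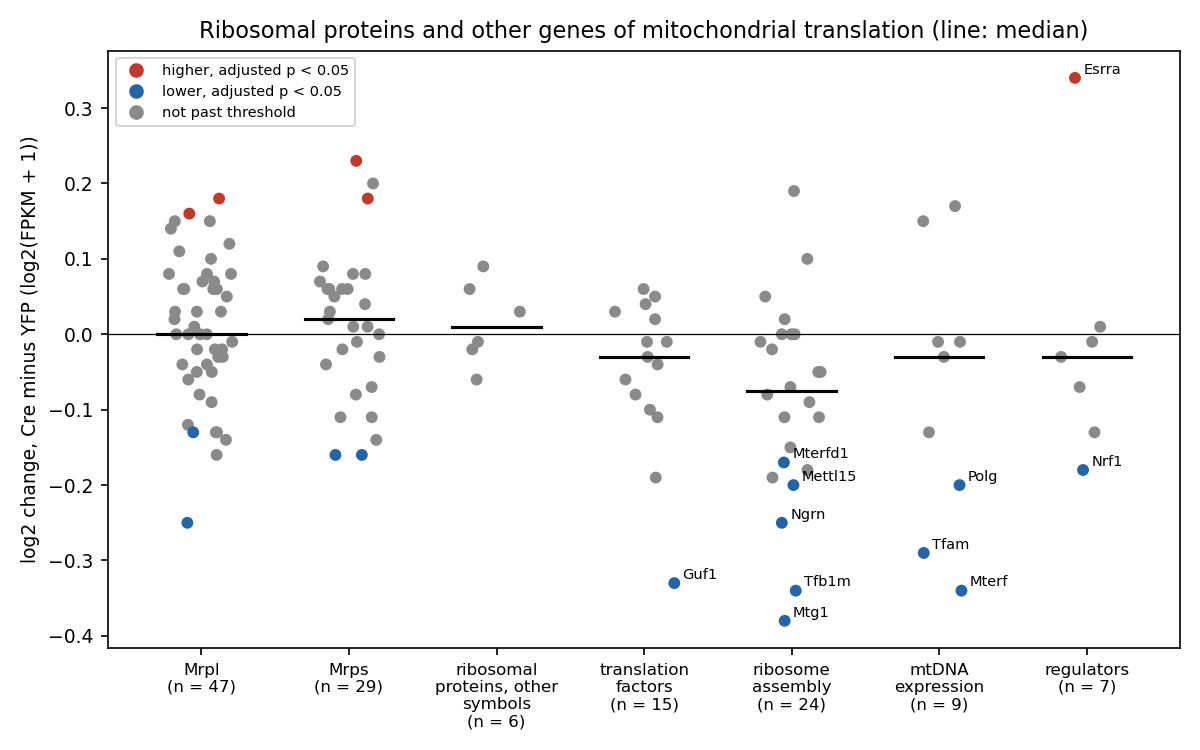
Log2 change (Cre minus YFP, on the log2(FPKM + 1) scale) of the Mrpl and Mrps genes and of 5 other lists. The lists cover ribosomal proteins with other symbols, translation factors, assembly factors, expression of mitochondrial DNA and regulators. Each point is a gene, the line is the median of its group, and colours mark genes past the threshold. Falls reach -0.38 in the assembly list (Mtg1), while the members stay between -0.25 and 0.23.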

How the data were processed

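RNA of 4 libraries (2 with Cre, 2 with YFP) was available as FPKM values deposited by the authors to 2 decimals. Columns were matched to samples by the number in their names. Per the submitters' processing notes, Bowtie 02.2.5 and the mm8 build were used. Not given in the sources used here are the FPKM program, its annotation and whether it used strand. FPKM values hold no read counts, so depth is unknown and counting intervals cannot be computed. Genes at 1 FPKM or more in 2 or more libraries (12046 of 19171) were compared as log2(FPKM + 1) with limma 3.58.1 in R 4.3.3 (trend, robust, two-sided, Benjamini-Hochberg over all tested genes, threshold 0.05). Log2 changes on this scale understate those of low genes. The procedure was also run on simulated data with independent noise and few changed genes. These data differ in that many genes were called, so that run is no check of the calls here.

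The labels do not say whether a group's libraries are separate cultures or animals. The p-values therefore measure just the spread among these 4 libraries, which may be technical. The members and lists were chosen with earlier results of these data known. Values in each library are given for called members (up to 10 rises and 10 falls), the 3 members of each subunit with the highest level, Mrps18a, Mrps30 and Mrps36, and up to 3 genes of each other list with the smallest p; others named were chosen after their values were seen. Gene lists matched older symbols through the RefSeq gene table. Promoters and miRNAs are from RefSeq (GRCm38.p6), UTRs and overlaps from GENCODE M21, which is another build than mm8, so that they serve to describe the genes only. Alternatives covered pseudocount, filter, scaling, moderation, GC and length, a replicate block and each library left out. The comparison groups by symbol (cytosolic ribosomal proteins, respiratory chain with ATP synthase), the range of levels and the moved subunit symbols were added after seeing the data.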

Additional observations from a re-analysis of the deposited data

How the results depend on the processing

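The count over all genes was 3961, and 3032 to 4064 under the other pseudocount, filters, scaling, moderation, GC and length removal and the replicate block. Leaving out 1 library gave 1872 (without Cre replicate 2) to 3560. For Mrpl genes, 4 were called, and 7 (0 higher, 7 lower) with the GC and length trend removed, 2 without trend and robust moderation, 8 with a mean FPKM of at least 5, and 0 (without Cre replicate 1) to 9 (without YFP replicate 2) with 1 library left out. For Mrps genes, 4 were called, 2 without trend and robust moderation, and 0 (without Cre replicate 2) to 4 with 1 library left out. For the 61 other genes, 11 were called, and 5 (without either Cre replicate) to 12 with 1 library left out. In each of these fits the share of members called (1.32% to 17.1%) was below that of all genes in the same fit (15.5% to 35.8%).

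Under median-of-ratios scaling the split of the members was 6 higher and 3 lower, and with no filter 4 and 2. With a replicate block, 3 Mrpl and 3 Mrps genes were called, all 6 of them among the 8, and 3533 genes over all. Same-numbered libraries did not deviate together (correlation -0.0313 over genes), so the numbers were not taken as pairs. Under the replicate block Mrps17, Mrpl40, Polg, Nrf1 and Mettl15 lost their calls (adjusted p = 0.0602, 0.0752, 0.063, 0.0619 and 0.0779), and 8 of the 61 other genes were called. The 8 called members and the named falls and rises among the 61 other genes kept their direction in every alternative run for them; Mir17hg, Slc5a3 and the marker genes were not run, nor Tfb1m, Mterf and Mettl15 at a mean FPKM of at least 5. The depth is unknown, and with 2 libraries a group the smallest log2 change called among members was -0.13 (Mrpl40). The cause of the lost calls was not tested.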
